A study of Mus musculus with 62 samples.

Results

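Gastrocnemius (GC) muscle of muscle-specific ChREBP knockout mice (ChMKO) was compared with that of floxed littermates (F/F) after hypoxia. These 8 libraries, 4 per genotype, were chosen by their labels from the 62 of the study, which also sequenced GC or soleus of mice on chow, in normoxia, on a high-fructose diet or after viral ChREBP overexpression, and C2C12 myotubes. All 8 mice spent 14 days in a chamber that simulated 5500 m. The study used male mice aged 8 to 10 weeks unless stated otherwise. F/F mice carry loxP sites around exon 8 of Mlxipl, the gene of ChREBP, and no Cre. ChMKO mice carry the same alleles and a Cre driven by the muscle creatine kinase promoter, which is active in striated muscle fibres and in heart, so fat, nerve, vessel and immune cells of the muscle keep the gene. Of 21936 gene symbols measured, 10628 had a mean of at least 0.5 FPKM (fragments per kilobase of transcript, scaled to the fragments of the library) over the 8 libraries and were tested.

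ChREBP is a transcription factor that is switched on by sugar phosphates and binds DNA together with its partner Mlx. In liver and fat it drives genes of glycolysis, fructose use and fatty acid synthesis. Its close relative MondoA, the product of Mlxip, is the main member of the family in skeletal muscle, where Txnip and Arrdc4 are its best known targets.

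The libraries held 14574730 to 20307286 reads on genes, and 2 of the 4 F/F libraries, WTc360 and WTc361, stood apart from the other 6. On the first principal component, which carried 64.6% of the variance, both lay at -37.1 while the other 6 lay between 1.82 and 27.8. Genes whose transcripts have a low GC content read high in them. With the genes split into 5 equal bins by GC content, the median deviation of the lowest bin minus that of the highest was 0.326 and 0.332 in log2 in WTc360 and WTc361 and between -0.648 and -0.196 in the other 6. Mitochondrially encoded genes took 15.8% and 15.4% of reads in the pair, 10.6% and 8.45% in WTc341 and WTc348, and 6.68% to 11.9% in the ChMKO libraries. Trdn, which encodes triadin of the calcium release complex, read 252 and 267 FPKM in the pair and 4.57 to 13.9 FPKM in the other 6. Xirp2, an actin-binding protein of the fibre, averaged 298 FPKM in the pair against 12.3 to 32.6 FPKM, while Actc1, the cardiac actin, read 186 and 92.8 FPKM against 298 to 4097 FPKM. A similar profile with GC content was seen in normoxic F/F libraries WTc397 and WTc401 (0.306 and 0.329) and in all 8 high-fructose libraries (0.28 to 0.374). WTc360 and WTc361 correlated at 0.993 across genes, but their counts differed by a chi-square of 7.37 per gene, above sampling noise but below the 31.3 to 179 of every other pair of libraries within a genotype. They were kept as 2 libraries, and counts without each of them are given below. The labels do not name what sets the pair apart. The differences are therefore given with 8 libraries and, for most genes, again with the 6 left when WTc360 and WTc361 are left out.

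**Figure D1:**
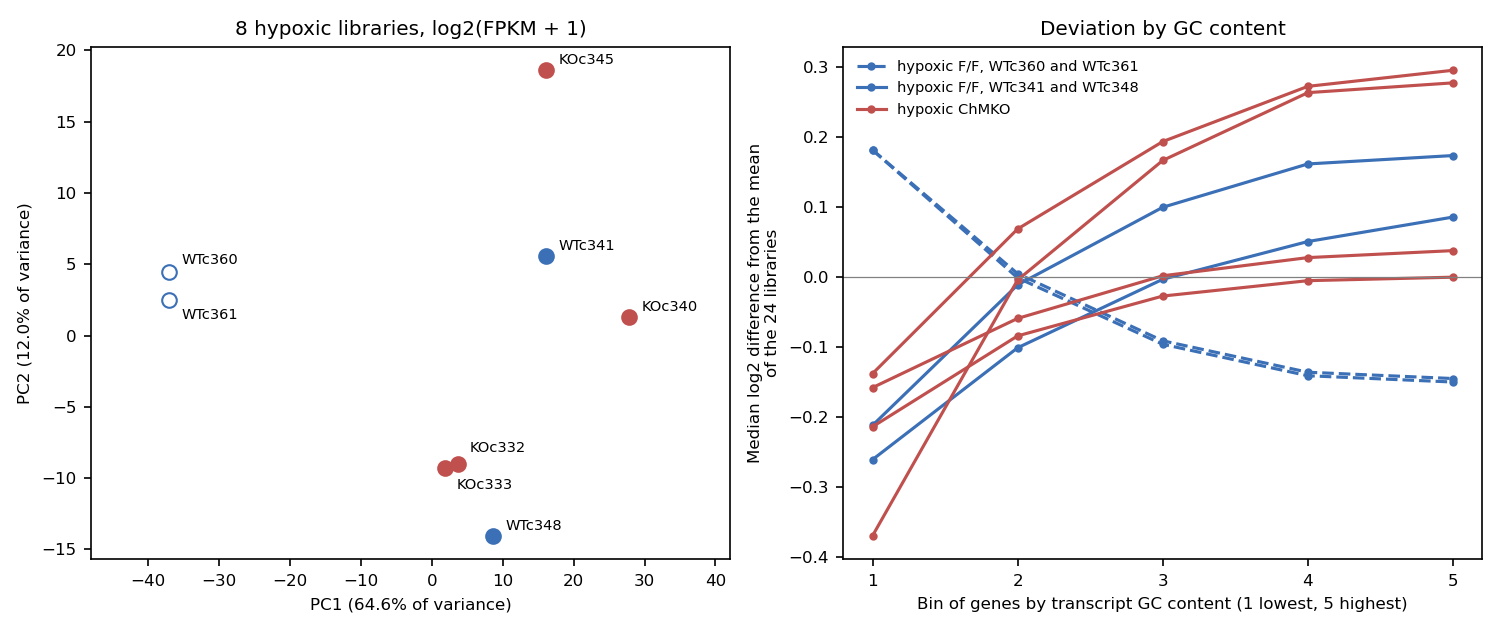
Left, the first and second principal components of log2(FPKM + 1) for the 8 hypoxic libraries, with WTc360 and WTc361 as open circles, F/F in blue and ChMKO in red. Right, the median log2 deviation of each library from the mean of 24 libraries for 5 equal bins of genes by transcript GC content, where the dashed lines of WTc360 and WTc361 run against those of the other 6 libraries.

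Mlxipl was the only gene that passed correction for multiple testing. Its level fell in ChMKO muscle. In the order WTc360, WTc361, WTc341 and WTc348, the F/F libraries read 8.76, 7.98, 8.05 and 8.05 FPKM. In the order KOc332, KOc333, KOc340 and KOc345, the ChMKO libraries read 2.38, 2.78, 2.89 and 3.24 FPKM, and the same orders are used below. The groups were far from overlapping. The means were 8.21 ± 0.37 in F/F and 2.82 ± 0.352 FPKM in ChMKO (SD, n = 4). On the log2(FPKM + 1) scale, which understates the change of low genes, Mlxipl fell by 1.27 (SE 0.10), with an adjusted p of 0.00297 in limma. With 6 libraries it fell by 1.25, with an adjusted p of 0.0485. Mlxipl lies at chr5:135118744-135167236 on the plus strand (GRCm39). Reads from exons other than the deleted exon 8, and from cells without Cre, still count towards its level.

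Mlxip, the gene of the relative MondoA, and Mlx, the gene of the partner, were not called. Mlxip read 12.6, 13.4, 17.8 and 17.5 in F/F and 13.6, 14.4, 17.1 and 13.7 FPKM in ChMKO libraries, a difference of -0.05 (SE 0.14). Mlx, the shared dimer partner, read 3.98, 3.82, 6.36 and 6.09 in F/F and 4.99, 3.78, 6.31 and 6.30 FPKM in ChMKO libraries, a difference of 0.07 (SE 0.19). With 8 libraries the groups overlapped for both genes. With 6 libraries the differences were -0.25 for Mlxip (SE 0.14) and -0.21 for Mlx (SE 0.19), and for Mlxip all 4 ChMKO libraries then lay below both F/F libraries. Of the 7 tested members of the list of ChREBP, MondoA and their partners, Mlxipl was the 1 that was called.

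ChREBP and MondoA bind with Mlx to pairs of E-boxes. For 3 genes whose levels are given here, matches are shown. Txnip has a pair of E-box-like sites, while Arrdc4 and Mlxipl have a single E-box. An E-box, CACGTG, stands in 6.02% of the 32851 RefSeq promoter windows searched (GRCm38.p6, 250 bases before the start, both strands), and a pair of E-box-like sites, CACGNG and CNCGNG 5 bases apart, in 0.28%. Either site can overlap an E-box. Of the 23 targets tested, 16 had a promoter in the table, and the capitals below mark the match, with 30 bases on each side, read 5′ to 3′ on the strand of the gene. The windows lie at chr3:96557842-96557918 (plus strand) for Txnip, chr7:68749396-68749461 (minus strand) for Arrdc4 and chr5:135089762-135089827 (plus strand) for Mlxipl itself.
Txnip: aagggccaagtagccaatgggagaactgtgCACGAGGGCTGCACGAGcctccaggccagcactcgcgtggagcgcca
Arrdc4: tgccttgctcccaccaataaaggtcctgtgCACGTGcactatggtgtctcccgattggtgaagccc
Mlxipl: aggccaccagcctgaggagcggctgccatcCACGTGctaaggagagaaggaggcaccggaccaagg
The match begins 85 bases before the start of Txnip, 193 bases before that of Arrdc4 and 98 bases before that of Mlxipl. Khk and Pfkfb3 were the other listed targets with an E-box in the window, and Mlx, which is not a listed target, had an E-box too. A match is a description of these letters and not evidence of binding.

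Neither of the best known MondoA targets differed beyond the spread of the libraries. Txnip, an inhibitor of glucose uptake and of thioredoxin, read 165, 110, 240 and 244 in F/F and 195, 150, 220 and 241 FPKM in ChMKO libraries. The F/F values spanned those of ChMKO, with the pair WTc360 and WTc361 lowest, and the difference was 0.13 (SE 0.26) with 8 libraries and -0.29 (SE 0.19) with 6. Arrdc4, an arrestin of the same family, read 3.13, 2.99, 3.34 and 2.39 in F/F and 2.84, 2.72, 2.76 and 2.48 FPKM in ChMKO libraries, a difference of -0.09 (SE 0.11), and of -0.05 (SE 0.15) with 6 libraries. Khk, which encodes the first enzyme of fructose use, differed by 0.17 (SE 0.11), and by 0.07 (SE 0.14) with 6 libraries. Pfkfb3, an activator of glycolysis, ran from 26.1 to 66.8 in F/F and from 26.1 to 98.4 FPKM in ChMKO libraries, and differed by -0.11 (SE 0.42), and by 0.31 (SE 0.45) with 6 libraries.

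Across the 10628 genes, 420 (3.95%) were higher and 140 (1.32%) lower in ChMKO muscle at an unadjusted p under 0.05, and the median difference of all genes was 0.08. Scaling by median of ratios instead gave 547 called genes, 214 of them higher, with a median of -0.01, quantile normalisation gave 598 with 230 of them lower, and removal of the GC trend within bins gave 618 with 283 of them higher, so the balance of directions depended on the scaling. With 6 libraries, 62 (0.589%) of 10518 genes were higher and 25 (0.238%) lower. The counts also moved with single libraries, to 1495 and 829 without WTc341, 639 and 763 without WTc348, 121 and 19 without WTc360, 115 and 16 without WTc361, 164 and 32 without KOc340, 183 and 145 without KOc345, and 507 and 54 without KOc332. Of the 420 higher genes, 38 were also called with 6 libraries, and all 420 had the same sign. Of the 123 lower genes tested in both fits, 6 were called with 6 libraries and all 123 had the same sign. These fits share their 4 ChMKO and 2 F/F libraries. Apart from Mlxipl, the smallest adjusted p was 0.532 with 8 libraries and 0.9999 with 6, so every other call below rests on an unadjusted p and none passed correction. Because these are bulk samples, fewer cells of a type and less RNA per cell cannot be told apart.

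**Figure D2:**
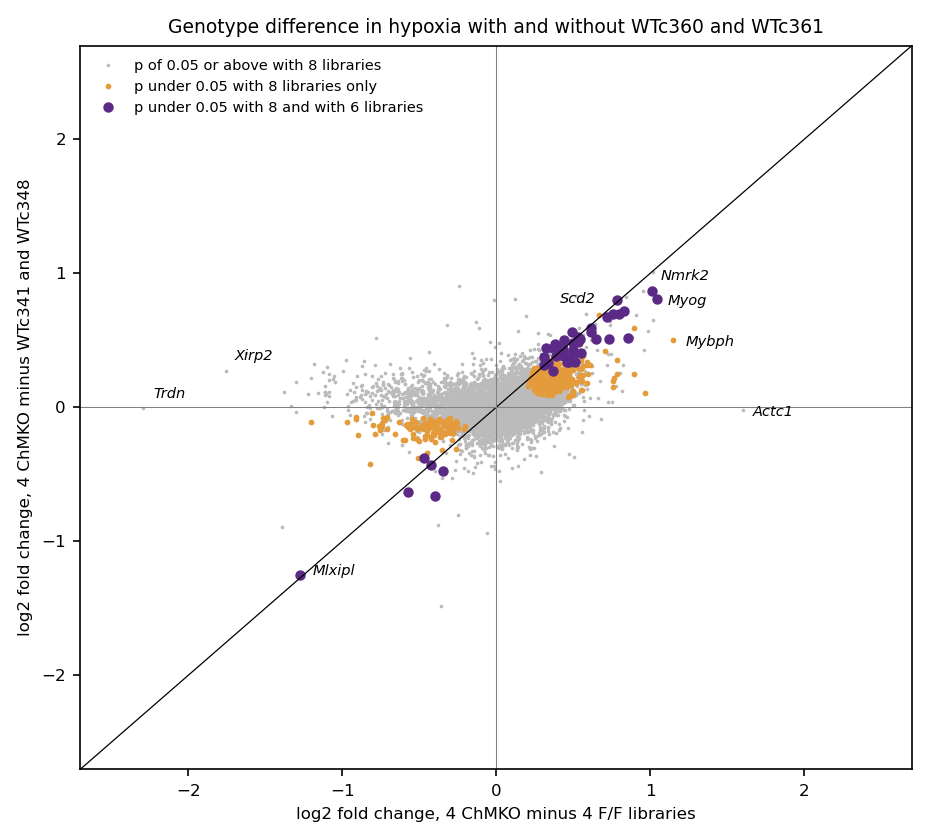
Each point is a gene tested in both fits, with the log2 fold change of 4 ChMKO minus 4 F/F libraries on the x axis and of 4 ChMKO minus WTc341 and WTc348 on the y axis, and a line of equality. Mlxipl lies at -1.27 and -1.25, near that line, while Trdn and Xirp2 to the left and Actc1 to the right lie far from it.

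Fasn, Scd2 and Scd1, which make and desaturate fatty acids, were higher in ChMKO muscle with 8 and with 6 libraries. Of the 23 tested members of the list of ChREBP and MondoA targets, 6 were higher and 0 lower, beside 3.95% and 1.32% of all genes, with a median of 0.17 beside 0.08 over all genes. Fasn, the fatty acid synthase, read 1.68, 1.39, 1.51 and 1.85 in F/F and 3.07, 2.96, 3.23 and 1.99 FPKM in ChMKO libraries. No ChMKO library fell to the F/F range, and the difference was 0.54 (SE 0.13) with 8 and 0.50 (SE 0.17) with 6 libraries. Scd2, a desaturase that makes monounsaturated fatty acids, read 8.33, 7.88, 11.9 and 7.37 in F/F and 15.6, 11.1, 17.4 and 20.9 FPKM in ChMKO libraries, and only KOc333 lay under an F/F library. It differed by 0.79 (SE 0.20), and by 0.70 (SE 0.24) with 6 libraries. Scd1, the desaturase of fat and liver, read 18.4, 13.2, 15.8 and 21.7 in F/F and 41.4, 31.0, 40.7 and 17.7 FPKM in ChMKO libraries. Here 3 ChMKO libraries were above every F/F library and KOc345 lay among them, with a difference of 0.83 (SE 0.26) and of 0.72 (SE 0.30) with 6 libraries. In a fit of the 16 hypoxic and normoxic libraries with a term for WTc360, WTc361, WTc397 and WTc401, Scd2 was called, at a difference of 0.55, and Fasn (0.41) and Scd1 (0.88) were not.

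The other called targets were no longer called when WTc360 and WTc361 were left out. Gpd1, which turns a glycolytic intermediate into the glycerol backbone of lipids, read 139, 138, 194 and 184 in F/F and 220, 221, 209 and 214 FPKM in ChMKO libraries. Its groups did not overlap, but the difference of 0.41 (SE 0.14) went to 0.19 (SE 0.14) with 6 libraries. In the fit of 16 libraries with the term, however, Gpd1 stayed called, at a difference of 0.18. Thrsp, a lipogenic cofactor, differed by 0.40 (SE 0.15) and by 0.22 (SE 0.16) with 6 libraries. Tkt, an enzyme of the pentose phosphate pathway, differed by 0.33 (SE 0.14) and by 0.09 (SE 0.12) with 6 libraries. Klf10, a repressor, was lower with 6 libraries (-0.45, SE 0.17) and not with 8 (-0.14, SE 0.20). With 6 libraries the list thus held 3 higher members and 1 lower, beside 0.589% and 0.238% of all genes. Its median was 0.07 beside 0.03 for all genes. Acaca and Acly, which feed Fasn with substrate, differed by -0.06 (SE 0.11) and 0.19 (SE 0.17), and Acacb, which controls fatty acid oxidation in muscle, by 0.20 (SE 0.17). With 6 libraries these differences were 0.02 (SE 0.14), -0.04 (SE 0.18) and -0.01 (SE 0.19), each of the opposite sign.

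Markers of fat cells moved with these genes in part. Of 12 adipocyte markers 9 were tested, and 2 were higher, beside 3.95% of all genes, with a median of 0.30 (0.27 with 6 libraries). Adipoq, the adiponectin gene, read 3.51, 4.81, 2.05 and 2.57 in F/F and 6.02, 7.30, 6.85 and 1.60 FPKM in ChMKO libraries. Cfd, the adipsin gene, read 16.4, 17.5 and 16.2 FPKM in F/F libraries WTc360, WTc341 and WTc348, was highest among F/F in WTc361, and read 36.0, 39.5, 43.6 and 9.40 FPKM in ChMKO libraries. For Adipoq, Cfd, Fasn and Scd1 alike, KOc345 was the lowest ChMKO library, and for the first pair of genes it was also under every F/F library. Scd2 was highest in KOc345. Adipoq and Cfd differed by 0.52 (SE 0.36) and 0.58 (SE 0.41) with 8 libraries, and by more, 0.83 (SE 0.40) and 0.69 (SE 0.48), with 6. In the fit of 16 libraries with a term for the 4 that stand apart they differed by 0.92 and 0.89. The called members were Retn, the resistin gene (0.42, SE 0.15, and 0.45, SE 0.19, with 6 libraries), and Fabp4, a fatty acid carrier (0.30, SE 0.12, and 0.16, SE 0.14, with 6 libraries). The summed level of the list ran from 591 to 837 in F/F and from 554 to 812 FPKM in ChMKO libraries, and none of its members was at 0 in all libraries. Most of that sum came from Car3, which fibres express too. The part of fat cells in the lipogenic genes was not tested.

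**Figure D3:**
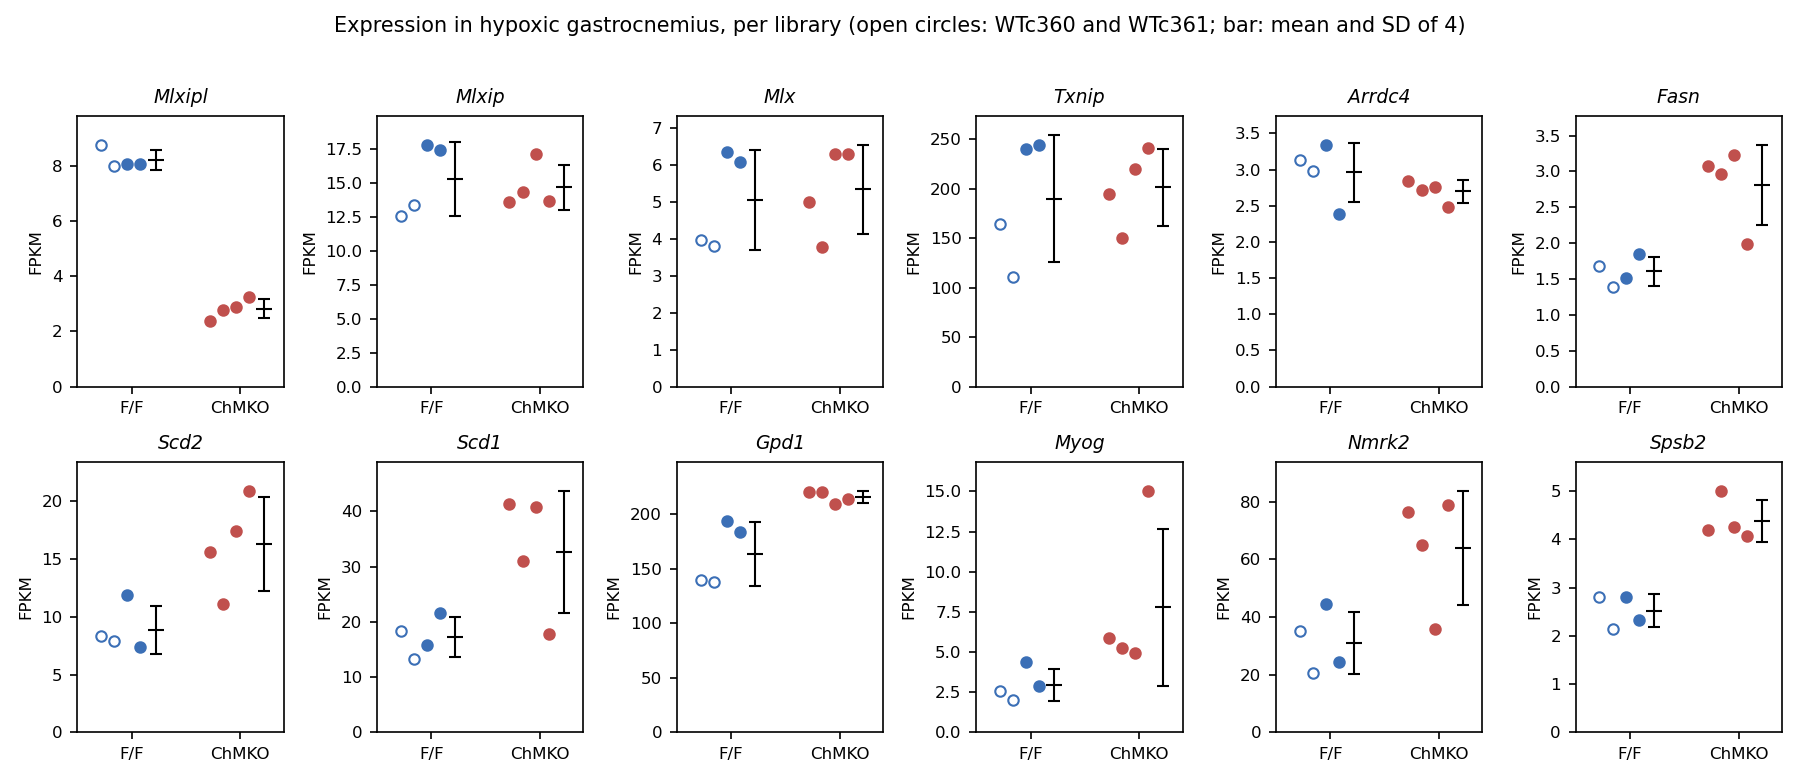
FPKM of 12 genes in each of the 8 hypoxic libraries, F/F in blue and ChMKO in red, with WTc360 and WTc361 as open circles and the mean and SD of the 4 libraries as black bars. The groups do not overlap for Mlxipl, Fasn, Gpd1, Myog and Spsb2, and do for Txnip, Mlxip and Mlx.

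In all, 6 genes met the criterion of the study, a log2 difference of 1 or more in either direction with an unadjusted p under 0.05 (0.0565% of genes), and 1 of them, Mlxipl, did so with an adjusted p (0.00941%). Myog, which encodes the muscle regulatory factor myogenin, read 2.57, 2.04, 4.35 and 2.89 in F/F and 5.87, 5.28, 4.92 and 15.1 FPKM in ChMKO libraries. Every ChMKO library was above every F/F library, with KOc345 far above the rest, and the difference was 1.04 (SE 0.31) with 8 and 0.81 (SE 0.35) with 6 libraries. Nmrk2, a muscle kinase for nicotinamide riboside on the way to NAD, read 35.1, 20.6, 44.4 and 24.6 in F/F and 76.4, 65.2, 35.7 and 79.0 FPKM in ChMKO libraries. KOc340 lay within the F/F range, and the difference was 1.01 (SE 0.29) with 8 and 0.87 (SE 0.32) with 6 libraries. In the fit of 16 libraries with a term for the 4 that stand apart, Myog (0.64) and Nmrk2 (0.74) were not called. Mybph, a myosin-binding protein, differed by 1.15 (SE 0.41), and by 0.50 (SE 0.32) with 6 libraries. Esf1 and Zfp946 met the criterion as lower genes through the pair alone. Esf1 read 7.03 and 6.88 FPKM in WTc360 and WTc361 and 0.207 to 0.922 FPKM in the other 6, and Zfp946 read 4.50 and 4.22 FPKM against 0.0882 to 0.476 FPKM. With 6 libraries the genes past the criterion were Mlxipl and Cyp26b1, a retinoic acid hydroxylase, whose difference of -1.48 (SE 0.62) came from WTc341, at 20.5 FPKM beside 2.17 FPKM in WTc348 and 1.09 to 4.55 FPKM in ChMKO libraries. The number of genes past the criterion was 151 without WTc341, 120 without WTc348, 15 without KOc333, 3 without KOc332 and 1 without WTc361.

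A small set of genes separated the genotypes in both fits. The 4 and 4 libraries did not overlap for 180 higher (1.69%) and 36 lower (0.339%) genes, and 27 of these were higher and 2 lower at an unadjusted p under 0.05 with 8 and with 6 libraries. Apart from Ccl8 and Tnfrsf4, the genes described next are those with the smallest p among them. Several genes with a smaller p than Ccl8 or Tnfrsf4 are not described. All genes described next were chosen after their values were seen. Spsb2, a substrate receptor of a ubiquitin ligase, read 2.80, 2.14, 2.81 and 2.33 in F/F and 4.19, 5.01, 4.25 and 4.06 FPKM in ChMKO libraries, with differences of 0.61 (SE 0.11) and 0.59 (SE 0.14 with 6 libraries). Ift27, a small GTPase of the cilium, read 1.25, 1.38, 2.19 and 1.46 in F/F and 3.01, 2.66, 2.94 and 3.35 FPKM in ChMKO libraries, with differences of 0.64 (SE 0.13) and 0.51 (SE 0.15). Stmn1, the microtubule regulator stathmin, read 1.07, 0.974, 1.34 and 0.972 in F/F and 2.51, 1.57, 3.09 and 2.77 FPKM in ChMKO libraries, with differences of 0.72 (SE 0.15) and 0.68 (SE 0.19).

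Other genes of the same set had varied roles. Jpt1, a microtubule-associated protein, differed by 0.50 (SE 0.11), and Cotl1, an actin-binding protein, by 0.74 (SE 0.18), and with 6 libraries by 0.39 and 0.51. Cks1b, a subunit of cyclin-dependent kinases, differed by 0.53 (SE 0.13), and by 0.49 with 6 libraries. Dusp29, a phosphatase of muscle, read 18.4, 20.2, 38.8 and 25.6 in F/F and 48.1, 45.5, 40.3 and 48.8 FPKM in ChMKO libraries, a difference of 0.86 (SE 0.21) that was 0.52 (SE 0.18) with 6 libraries. Apmap, an adipocyte membrane protein, differed by 0.47 (SE 0.11), Avpi1 by 0.50 (SE 0.11), Oxld1 by 0.42 (SE 0.10) and Spg21, the maspardin gene, by 0.44 (SE 0.11), and with 6 libraries by 0.34, 0.42, 0.39 and 0.38 in that order. H2-M3, a class I molecule that presents formylated peptides and belongs to a family of similar genes among which reads could be split, differed by 0.50 (SE 0.12), and by 0.42 with 6 libraries. Ccl8, a chemokine, read 0.309, 0.867, 0.841 and 0.252 in F/F and 3.03, 1.21, 1.45 and 1.26 FPKM in ChMKO libraries, a difference of 0.78 (SE 0.22), and of 0.80 (SE 0.25) with 6 libraries. Besides Mlxipl the lower gene was Tnfrsf4, which encodes OX40, a receptor found on T cells. It read 1.81, 1.05, 1.08 and 1.13 in F/F and 0.799, 0.603, 0.589 and 0.513 FPKM in ChMKO libraries (-0.47, SE 0.12, and -0.38, SE 0.12, with 6 libraries). None of these genes lost its call when any 1 library was left out. They were picked for separated groups and calls in fits of these same libraries, so this is no independent support.

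Markers of fibre type did not separate the genotypes. None of the 11 markers was called with 8 or with 6 libraries, which does not show that they were equal. Tnnc2 and Myh7b read no more than 1.77 and 0.79 FPKM in the normoxic and high-fructose libraries. Their lack of a call carries little weight. Myh4, the myosin of the fastest fibres, read 9818, 9661, 8097 and 11834 in F/F and 12075, 9951, 8813 and 7198 FPKM in ChMKO libraries, a difference of -0.06 (SE 0.22), and of -0.07 (SE 0.25) with 6 libraries. Myh7, the slow myosin, read 25.5, 22.7, 53.7 and 9.13 in F/F and 19.9, 6.36, 38.6 and 68.3 FPKM in ChMKO libraries, a difference of 0.07 (SE 0.68), and of 0.12 (SE 0.81) with 6 libraries. Within each genotype the slow markers varied far more between mice than the genotypes differed, with Tnni1 at 7.18 FPKM in WTc348 and 50.2 FPKM in WTc341, and at 5.74 FPKM in KOc333 and 50.5 FPKM in KOc345. The same libraries were lowest and highest for Tnnc1 and Tnnt1. Myh2 and Myh1, of intermediate fibres, differed by 0.02 (SE 0.34) and 0.01 (SE 0.27), and by 0.17 (SE 0.39) and -0.25 (SE 0.29) with 6 libraries. The fast troponins Tnni2 and Tnnt3 differed by 0.22 (SE 0.20) and 0.07 (SE 0.18), and by -0.05 (SE 0.17) and -0.03 (SE 0.19) with 6 libraries. Of the 12 genes of fibre identity, which check the tissue, all 12 were tested and their summed level ran from 44698 to 67392 FPKM in the 8 libraries.

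Energy metabolism gave few calls. Counts of called members stand here beside the 3.95% of all genes that were higher and the 1.32% that were lower with 8 libraries, and 0.589% and 0.238% with 6. Of 59 tested nuclear genes of the respiratory chain and ATP synthase, 29 of pyruvate entry and the TCA cycle, 35 of fatty acid uptake and oxidation and 18 of the circadian clock, none was called with 8 or 6 libraries. The median of the respiratory chain genes was 0.30 with 8 libraries and 0.02 with 6. Of 22 genes of glycolysis and lactate 1 was higher, Tpi1, the triose phosphate isomerase (0.41, SE 0.18, and 0.14, SE 0.15, with 6 libraries). Of 16 genes of glycogen handling 1 was higher, Stbd1, which tethers glycogen to membranes. Stbd1 read 31.8, 22.5, 31.9 and 24.7 in F/F and 41.7, 42.7, 30.3 and 49.5 FPKM in ChMKO libraries, with KOc340 within the F/F range, and differed by 0.55 (SE 0.17) and by 0.51 (SE 0.20) with 6 libraries. The 13 mitochondrially encoded genes had a median of -0.61 with 8 libraries and -0.12 with 6, and 1 of them, mt-Atp6, was lower (-0.61, SE 0.27) with 8 and not with 6 (-0.24, SE 0.25). Of 27 genes of oxygen sensing 1 was higher, Higd1a, a mitochondrial protein induced by hypoxia (0.38, SE 0.13, and 0.20, SE 0.14, with 6 libraries). With 6 libraries none was higher and 1 was lower, Hmox1, the inducible heme oxygenase, at -0.41 (SE 0.17), beside -0.01 with 8. Of 39 genes of lipid transport 1 was higher, Slc10a6, a carrier of steroid sulphates (0.38, SE 0.12, and 0.47, SE 0.15, with 6 libraries). With 6 libraries Abca1, a cholesterol exporter, was higher too (0.39, SE 0.15, beside 0.08 with 8). With GC bins removed 0 members were higher and 3 lower, beside 283 higher and 335 lower of all 10616 genes tested. Hmox1 and Abca1 were chosen after their values were seen.

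**Figure D4:**
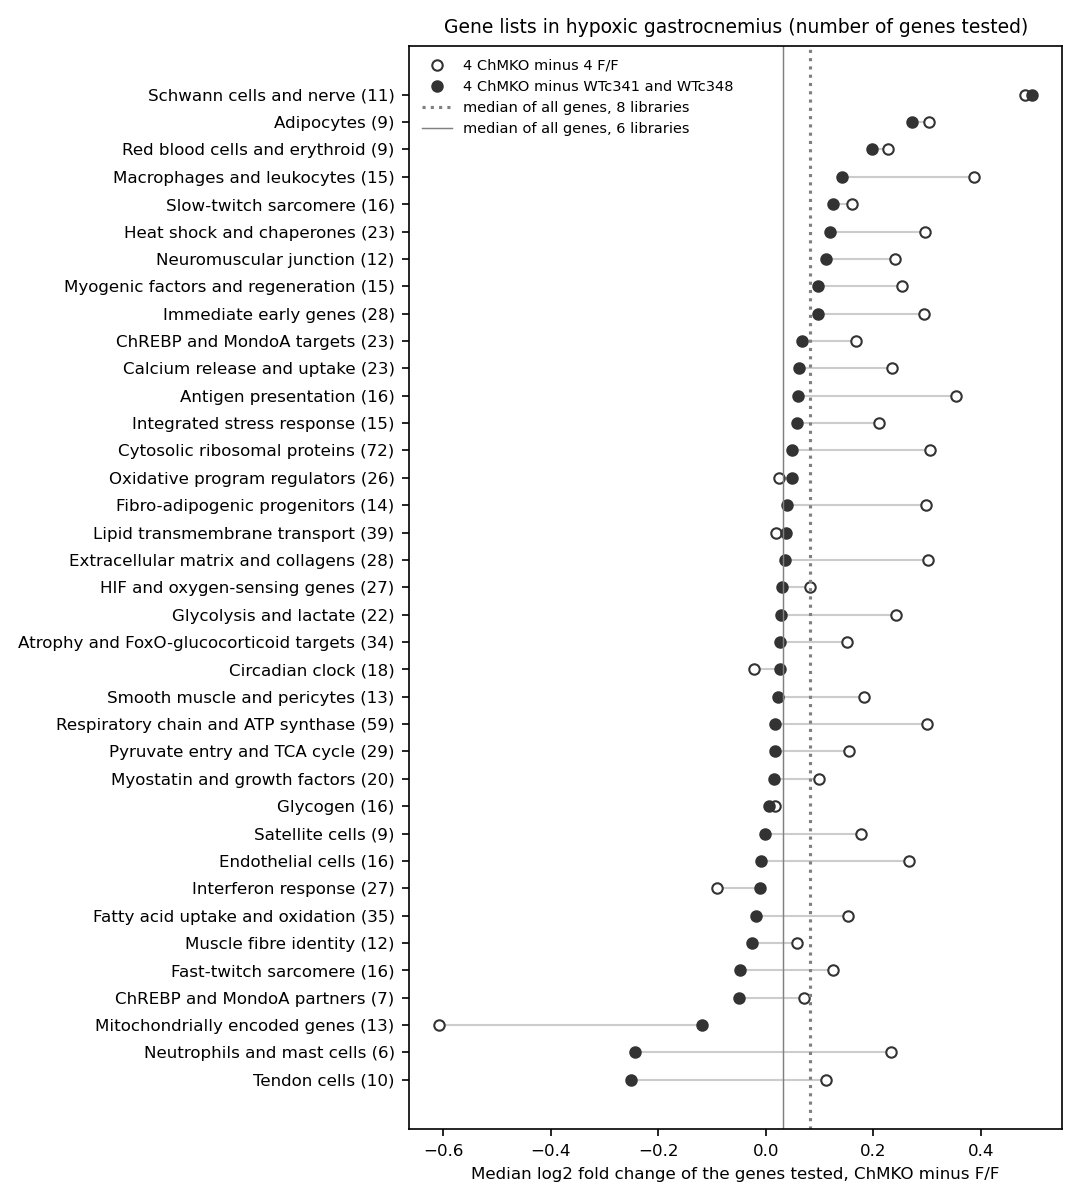
Median log2 fold change of each list of genes (number tested in brackets), ChMKO minus F/F, with 8 libraries as open circles and with 6 as filled circles, and lines for the median of all genes. Most lists that lie right of the lines with 8 libraries, such as the respiratory chain at 0.30, lie near them with 6, and the Schwann cell list stays at 0.48 and 0.50.

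Most calls in the lists for stress and growth were lost without WTc360 and WTc361. Of 23 heat shock and chaperone genes 5 were higher with 8 libraries and 0 with 6, beside 3.95% and 0.589% of all genes. Among them Hspb1, a small heat shock protein, read 64.9, 61.7, 158 and 114 in F/F and 153, 115, 147 and 252 FPKM in ChMKO libraries, a difference of 0.79 (SE 0.33) and of 0.25 (SE 0.27) with 6 libraries. The others were Hspb8 (0.46), Hspe1 (0.34), Dnajb1 (0.54) and Hspa1b (0.56), whose reads could be shared with its near-identical copy, and with 6 libraries they differed by 0.33, 0.17, 0.48 and 0.38. Of 72 cytosolic ribosomal protein genes 7 were higher with 8 libraries and 0 with 6, with medians of 0.31 and 0.05 beside 0.08 and 0.03 for all genes. Of 15 myogenic and regeneration genes 2 were higher, Myog and Gadd45a, a stress-induced growth arrest gene (0.48, SE 0.14, and 0.33, SE 0.15, with 6 libraries), and Myog was called with 6 libraries too. Dusp1, an immediate early phosphatase, differed by 0.71 (SE 0.25), with KOc345 highest at 64.1 FPKM, and by 0.42 (SE 0.26) with 6 libraries. It was the 1 higher of 28 immediate early genes with 8 libraries, and with 6 the 1 higher gene was Gadd45b, a stress-induced gene chosen after its values were seen (0.55, SE 0.17, beside 0.27 with 8).

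Of 15 macrophage and leukocyte genes 5 were higher with 8 libraries and 0 with 6, beside 3.95% and 0.589% of all genes, with medians of 0.39 and 0.14. Cd68, a lysosomal protein of macrophages, read 1.76, 1.61, 3.42 and 2.77 in F/F and 5.84, 2.24, 4.33 and 11.2 FPKM in ChMKO libraries, a difference of 0.90 (SE 0.35), and of 0.59 (SE 0.40) with 6. Lyz2, the lysozyme of myeloid cells, read 28.7, 22.1, 63.3 and 62.9 in F/F and 63.1, 56.4, 61.3 and 145 FPKM in ChMKO libraries. For both genes KOc345 was highest and the pair lowest. The complement genes C1qb and C1qc and the Fc receptor gene Fcgr3 were the other called members. C1qb and C1qc were also called as higher on the high-fructose diet and on chow. The summed level of the list ran from 56.6 to 132 in F/F and from 110 to 240 FPKM in ChMKO libraries. Of 16 genes of antigen presentation 2 were called with 8 libraries, H2-DMa and H2-Eb1, and 0 with 6. None of the genes of T, B and NK cells reached the minimum level.

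Of 27 interferon genes tested, 1 was higher and 3 were lower with 8 libraries, beside 3.95% and 1.32% of all genes. With GC bins removed 0 were higher and 6 lower, beside 283 higher and 335 lower of all 10616 genes tested. With 6 libraries 1 was higher and 1 lower, beside 0.589% and 0.238% of all genes. Ifi27l2a read 8.08, 7.98, 8.62 and 5.98 in F/F and 12.0, 12.5, 12.0 and 8.37 FPKM in ChMKO libraries, a difference of 0.49 (SE 0.15) and of 0.56 (SE 0.19) with 6 libraries. The lower genes were Gbp3 (-0.42, SE 0.14), Ifit2 (-0.34, SE 0.13) and Iigp1 (-0.76, SE 0.32), and with 6 libraries they differed by -0.22, -0.14 and -0.14. Iigp1 read 2.89 and 3.35 FPKM in WTc360 and WTc361 and 0.354 to 1.23 FPKM in the other 6.

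The 11 tested Schwann cell and nerve genes had a median of 0.48 with 8 and 0.50 with 6 libraries, beside 0.08 and 0.03 for all genes, yet none was called. Pmp22, a protein of peripheral myelin, read 21.0, 25.5, 30.6 and 25.3 in F/F and 55.7, 21.0, 85.0 and 34.1 FPKM in ChMKO libraries. KOc332 and KOc340 were high and KOc333 lay at the low end of the F/F range, with a difference of 0.74 (SE 0.36) and of 0.61 (SE 0.42) with 6 libraries. The lists for extracellular matrix (28 tested), fibro-adipogenic progenitors (14) and endothelial cells (16) had 1, 3 and 1 higher members with 8 libraries and 0 with 6. Over all genes, 3.95% were higher with 8 libraries and 0.589% with 6.

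The genotype effect in hypoxia was set against that in normoxia in a test of the difference. None of 10751 genes passed the adjusted p, and 132 (1.23%) had an unadjusted p under 0.05. When WTc360, WTc361 and the normoxic libraries WTc397 and WTc401 were left out, none of 10680 passed and 144 had an unadjusted p under 0.05. The smallest p belonged to Col22a1, a collagen of the muscle and tendon junction, which differed by -0.20 (SE 0.11) in hypoxia and by 0.42 (SE 0.11) in normoxia, with a difference between the effects of -0.61 (SE 0.14), and of -0.53 without the 4 libraries. Zfp36l2, which promotes mRNA decay, differed by 0.44 in hypoxia and -0.40 in normoxia (interaction SE 0.26), and Gabrr1, a GABA receptor subunit, was the 1 of the 6 genes with the smallest p that was also called in hypoxia (0.45, SE 0.15). The others were Layn, Cyp2j6 and Hspb11. Myog and Nmrk2 were higher in hypoxia and had differences of 0.24 and 0.48 in normoxia, which went to -0.33 and 0.08 without WTc397 and WTc401, and the differences between the effects, 0.80 (SE 0.64) and 0.54 (SE 0.50), were not called.

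GC muscle of other F/F and ChMKO mice, with no library in common, gave the same contrast 3 more times. In the paper the high-fructose diet of the sequenced mice lasted 3 months, against 14 days of hypoxia. The sets are therefore not known to match in age at sampling. At an unadjusted p under 0.05, 11.1% of genes were called in normoxia (4 and 4 libraries), 7.36% on the high-fructose diet (4 and 4) and 4.63% on chow (5 and 5). Without WTc397 and WTc401 the number in normoxia went from 1207 to 297 genes. Mlxipl differed by -1.16, -0.92 and -0.63 in these sets, and 20 genes were called in hypoxia and with the same sign in at least 2 of the other 3. In hypoxia and in normoxia 2 of the 4 F/F libraries shared the same GC profile, and without those 4 libraries the number was 3, Mlxipl, Slc15a5 and Fgfbp3, of which Mlxipl and Slc15a5 were among the 20 and Fgfbp3 was named after its values were seen. Of the 20, 8 were called both on the high-fructose diet and on chow: Mlxipl, Rgcc, Dysf, Zc3h8, C1qb, C1qc, Gbp9 and 4930544D05Rik. Gbp9 and 4930544D05Rik were named after their values were seen. Slc15a5, a member of the peptide transporter family, was lower in hypoxia, at 4.50, 5.47, 5.47 and 5.51 in F/F and 1.99, 4.75, 4.32 and 2.35 FPKM in ChMKO libraries (-0.57, SE 0.21, and -0.63, SE 0.26, with 6). It differed by -0.81 in normoxia (SE 0.18), -0.86 on the high-fructose diet (SE 0.15) and -0.48 on chow (SE 0.25). Rgcc, a cell cycle regulator, differed by 0.47 in hypoxia (SE 0.18, and 0.29, SE 0.20, with 6), and by 0.69, 0.31 and 0.81 in the other sets. Dysf, the membrane repair protein dysferlin, differed by 0.48 in hypoxia (SE 0.19, and 0.41, SE 0.23, with 6), and by 0.57, 0.38 and 0.50 in the other sets. The remaining genes described here by their p were Stbd1, Gpd1, Fem1a, Itm2c, Tspo and Myo10, higher in ChMKO muscle, and Zc3h8 and Fpgt, lower. Of these 8, only Stbd1 kept an unadjusted p under 0.05 in hypoxia with 6 libraries. Fasn differed by 0.17 in normoxia, 0.17 on the high-fructose diet and 0.59 on chow (SE 0.22), and Spsb2 by 0.42, 0.10 and 0.15.

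**Figure D5:**
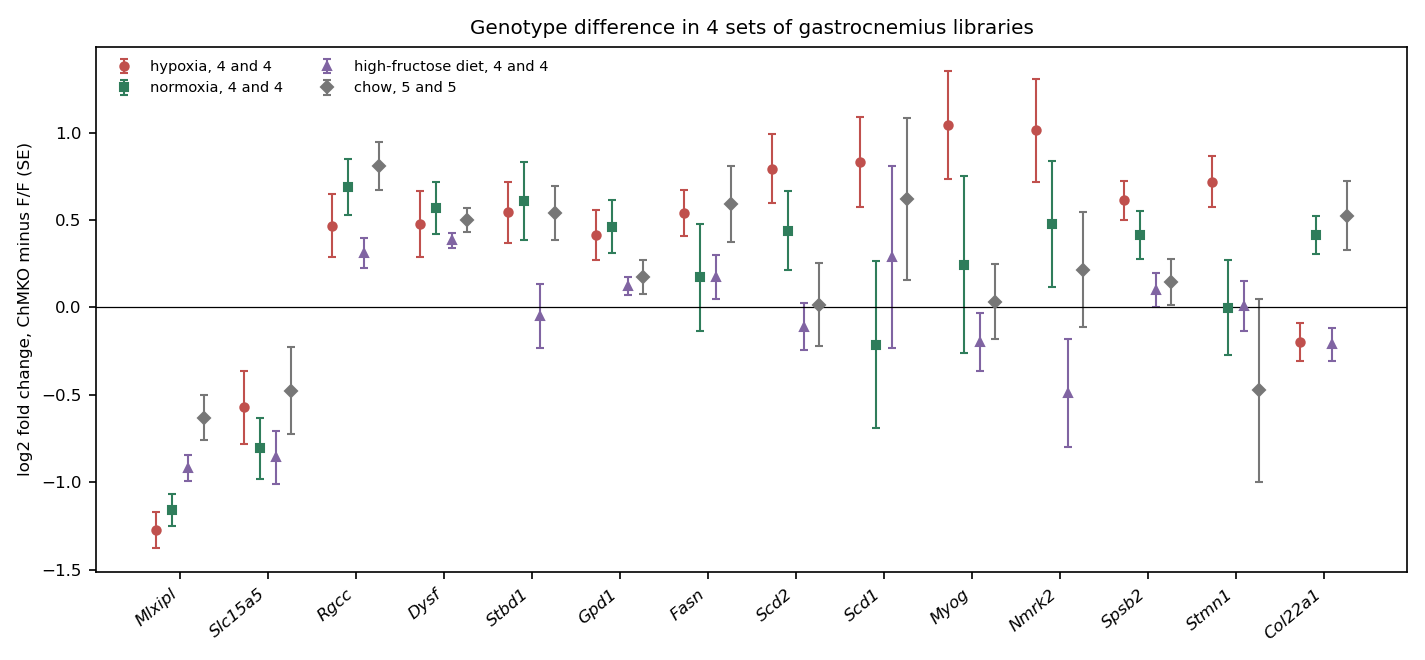
Log2 fold change of ChMKO minus F/F with its SE for 14 genes in hypoxia, normoxia, high-fructose diet and chow, each fitted by itself. Mlxipl and Slc15a5 lie below 0 and Rgcc and Dysf above 0 in all 4 sets, while Myog and Stmn1 stand above 0 by more than their SE in hypoxia alone, and neither difference between hypoxia and normoxia, 0.80 for Myog (SE 0.64) and 0.72 for Stmn1 (SE 0.33), passed correction.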

How the data were processed

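GC muscle of 4 F/F and 4 ChMKO mice was sequenced after 14 days of hypoxia. The authors deposited FPKM values for 24 GC libraries (normoxia, hypoxia, high-fructose diet) in a single table, and for chow in another. The submitters' processing notes name fastp 0.18.0, Bowtie2 2.2.8, HISAT2 2.1.0, StringTie 1.3.1, RSEM and GRCm39, without their roles, and whether counting used strand is not given in the sources used here. Groups came from the sample labels. Whole reads were recovered from the FPKM and gene lengths (99.8% to 99.9% of values within 0.01 of a whole number), and they bear on depth and on the voom alternative only.

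Tests were run with limma 3.58.1 in R 4.3.3 (lmFit and eBayes with a trend, two-sided) on log2(FPKM + 1), over genes that averaged 0.5 FPKM or more in the libraries compared, after the procedure was tested on simulated data. The simulated data held no libraries that stood apart and no GC trend, so they do not bear on the split of the F/F libraries. Adjustment was by Benjamini-Hochberg over all genes tested. Of entries that share a symbol, the one with the highest mean FPKM was kept. The p-values measure the spread between these libraries. The interaction used the 16 normoxic and hypoxic libraries. Figures and promoter matches were made in Python 3.11.15 with pandas 2.3.3, numpy 2.4.6 and matplotlib 3.10.9. The members and lists were chosen with earlier results of these data known. Genes were named by rule: Mlxipl, Mlxip, Mlx, 11 fibre markers and the genes past the adjusted p. Genes past the criterion of the study also needed groups that did not overlap and a call with 6 libraries. The rules also took the members of each list with the highest level or the smallest p. They further took the genes that differ most between WTc360 and WTc361 and the other 6, and the 6 with the smallest interaction p. Of genes called in hypoxia and in at least 2 of the 3 other comparisons, the 12 with the smallest p in hypoxia were taken. Other genes were chosen outside these rules after their values were seen, and not all are marked where they appear. Those without a mark include Nmrk2, Esf1, Zfp946, Cyp26b1, Arrdc4, Khk, Pfkfb3, Thrsp, Tkt, Klf10, Acaca, Acacb, Acly, Adipoq, Cfd and Hspb1. GC content was computed per transcript from GENCODE (GRCm38) for 99.89% of the genes tested. Alternatives changed the pseudocount (0.1), the minimum (5 or none), scaling, weights and the libraries used. The 10 soleus columns of the chow table and the log2 fold changes, p-values and FDR that the authors deposited for viral overexpression were not used.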

Additional observations from a re-analysis of the deposited data

Results flagged for a closer look

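Single libraries lay far from the other 3 of their group for several of the genes described. The gap to the nearest library, as a share of the range of the 4, was tested in 198 groups of 4, and 17 passed Dixon's 95% limit, where chance gives about 1 in 20. KOc345 was the most frequent, as the highest ChMKO library for Myog (0.906), Cyp26b1 (0.861), Lyz2 (0.924) and Dusp1 (0.966) and the lowest for Ifi27l2a (0.894). Among the other ChMKO libraries, KOc333 was highest for Oxld1 (0.831) and KOc332 for Ccl8 (0.867).

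In F/F muscle, WTc341 was the highest library for Cyp26b1 (0.925), Myo10 (0.842) and the slow troponins Tnnc1 (0.864) and Tnni1 (0.853). WTc360 was the highest for Mlxipl (0.906) and Tnfrsf4 (0.887) and the lowest for Hspa1b (0.846) and Slc15a5 (0.96). WTc361 was the highest for Cfd (0.832). On the second principal component the lowest F/F library, WTc348, lay apart from the other 3 (0.843). The calls for Myog, Dusp1, Ifi27l2a, Oxld1, Ccl8, Tnfrsf4 and Mlxipl held without the library in question, while those for Lyz2 and Slc15a5 depended on which library was left out.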

How the results depend on the processing

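The fall of Mlxipl passed the adjusted p in every alternative. The number of genes past the criterion of the study, 6, became 1 with a term for the 4 libraries that stand apart, 29 with all 24 libraries in a single fit, 325 with array weights, 3 with median-of-ratios scaling, 36 with a pseudocount of 0.1, 1 with GC bins removed, 38 with voom on recovered reads, 2 without WTc360 and WTc361, and 1 to 151 with 1 library left out. With an adjusted p it was 1, except for 322 with array weights, which gave WTc360 and WTc361 weights of 3.64 and 3.27 and WTc341 and WTc348 weights of 0.266 and 0.308. The 420 higher genes became 139 with the term, 1403 with 24 libraries, 2975 with weights, 231 with a minimum of 5 FPKM, 214 with median-of-ratios scaling, 62 without the pair and 115 to 1495 with 1 library left out. The 560 genes called in either direction became 212, 2119, 5110, 263, 547 and 87 in the same order, 861 with no minimum and 131 to 2324 with 1 library left out. Of 598 calls with quantile normalisation 230 were lower, and of 618 with GC bins removed 283 were higher. The 1207 genes called in normoxia became 297 without WTc397 and WTc401. The 20 genes called again in other sets became 3 without the 4 libraries that stand apart. The term, the GC bins and the omission of the normoxic pair were chosen after seeing the data. Of 64 named genes that were called, none changed sign, and 24 were called with the term, 44 of 64 with GC bins removed and 25 of 63 without the pair. No paired analysis was possible because the hypoxic F/F and ChMKO libraries share no replicate numbers.

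With 4 libraries a group, 2 of them apart in F/F, an unadjusted call cannot be told from the split of the libraries where it is lost with 6, and with 6 libraries the F/F mean rests on WTc341 and WTc348. The cause of the split was not tested, and no label names it.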

Other observations

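The remaining lists gave few calls, beside 3.95% higher and 1.32% lower over all genes with 8 libraries, and 0.589% and 0.238% with 6. Cacnb1, a subunit of the calcium channel of the fibre, was the 1 higher of 23 genes of calcium release and uptake (0.36, SE 0.15, and 0.22, SE 0.17, with 6 libraries). Psat1, of serine synthesis, was the 1 higher of 15 genes of the integrated stress response (0.33, SE 0.15), and Smad7, an inhibitor of TGF-beta signals, the 1 higher of 20 genes of myostatin and growth factors (0.32, SE 0.13), and neither was called with 6 libraries. None of the genes in the lists for slow-twitch sarcomere (16 tested), fast-twitch sarcomere (16), oxidative program regulators (26), smooth muscle and pericytes (13), satellite cells (9), neuromuscular junction (12) and red blood cells (9) was called with 8 or with 6 libraries. Of 10 tendon genes 0 were called with 8 libraries and 1 was lower with 6, where the median went from 0.11 to -0.25.

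Genes that differed most between WTc360 and WTc361 and the other 6 libraries included, besides Trdn and Xirp2, Nexn, a Z-disc protein, at a mean of 237 FPKM in the pair, 13.8 times that of the other 6, and mt-Nd5 at 9829 FPKM, 7.44 times. In the other direction lay Actc1, Mybph, Retnla, Cd74 and Lyz2, at 0.0853, 0.312, 0.336, 0.329 and 0.337 times the mean of the other 6. These ratios describe the libraries and carry no test.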
